A study of Mus musculus with 4 samples.

Results

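Capillary-type endothelial cells of the mouse choroid and retina were described across 4 single-cell RNA libraries. A cell was counted as capillary-type when it held at least 1 unique molecular identifier (UMI, one counted transcript) in at least 5 of the 9 endothelial genes Pecam1, Cdh5, Kdr, Flt1, Plvap, Cldn5, Tie1, Egfl7 and Emcn, and no UMI of Ackr1 or Selp, which mark venules. By this rule 2188 of 36701 cells were members. The libraries of young mice held 571 of them without laser (young control) and 812 with laser (young CNV), and those of aged mice held 371 (aged control) and 434 (aged CNV). The members were selected on their own UMIs of these 11 genes, so the levels of those genes are given as a description. CNV stands for choroidal neovascularization, the growth of choroidal vessels that follows a laser burn through the membrane beneath the retina.

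All 4 groups were wild-type mice (the labels name no strain), and each library mixed cells of the retina with cells of the choroid and sclera. The young groups were aged 6 to 8 weeks, the aged groups over 18 months. The 2 control libraries had no laser, and the 2 CNV libraries were taken 3 days after photocoagulation at 532 nm, 200 mW and 0.150 s with a spot of 100 µm. Both tissues were digested in papain, rods were depleted from the retinal cells with an antibody to CD73, and the suspensions were then pooled. The study set out to describe infiltrating immune cells, and the vessel cells were captured with them. The labels name neither the number of mice behind a library nor any separation of burn sites from the surrounding tissue.

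Each group is 1 library, so group and library cannot be told apart and no test between groups was possible. Levels are given as CPM, the UMIs of a gene per 1000000 UMIs summed over the cells named. Ratios carry exact 95% intervals that cover counting error only.

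Capillaries of the choroid and retina are built differently. The capillaries under the retinal pigment epithelium are fenestrated, with pores bridged by diaphragms of the protein Plvap, and they let plasma solutes reach the outer retina. Retinal capillaries form the inner blood-retina barrier, with tight junctions rich in Cldn5, the glucose carrier Slc2a1, the organic anion carriers Slco1a4 and Slco1c1, and the lipid carrier Mfsd2a, a state kept up by norrin and Wnt signalling. Capillaries of muscle and fat carry another set of genes, with Gpihbp1 and Lpl for lipoprotein breakdown and Cd36 and Fabp4 for fatty acid uptake.

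Of the 7 markers of the label, 6 are genes of the rule, so their level in members follows from the choice of cells. The summed level of Pecam1, Cdh5, Kdr, Flt1, Plvap, Cldn5 and Igfbp3 was 9856 CPM in young control members, 7711 in those of young CNV, 12616 in those of aged control and 9480 in those of aged CNV. In all cells that were not members, venular cells included, the same sum lay between 211 and 301 CPM. In the venular cells, which met the same count of endothelial genes with UMIs of Ackr1 or Selp, it was 7689, 5249, 5806 and 4383 CPM. Igfbp3, a binding protein of insulin-like growth factors that the rule did not use, stood at 1206, 1188, 922 and 1357 CPM in members. Between 4.91 and 46.3 CPM of Igfbp3 was found in the cells that were not members. Most members were far inside the rule: all 9 genes were detected in 299, 331, 177 and 173 members, exactly 5 genes in 26, 44, 16 and 31, and 32, 74, 19 and 42 cells just outside it held exactly 4.

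The libraries differed in ways that touch every comparison. Member UMIs summed to 6720550, 9636816, 2773374 and 3542704, and the median member held 9064, 8236, 6425 and 6251 UMIs in the same order, which is kept below wherever 4 values follow each other (young control, then young CNV, then aged control, then aged CNV). Rod-type cells, the retinal cells that the depletion was aimed at, made up 56.2%, 27.3%, 19.95% and 11.2% of all cells. Pairs of libraries shared 14 to 29 cell barcodes, and no shared barcode belonged to members in both libraries. Other ways of scaling the libraries moved the 2 laser comparisons by at most 0.04 on the log2 scale and would lower every aged-over-young log2 ratio by 0.12 to 0.18.

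Members formed 4.997% of the young control cells (exact 95% interval 4.60 to 5.41), 7.47% of the young CNV cells (6.99 to 7.98), 5.56% of the aged control cells (5.02 to 6.13) and 5.61% of the aged CNV cells (5.11 to 6.15). The young CNV share was thus the one that stood apart from the other 3. It was 1.50 times the young control share (1.34 to 1.67), while the aged CNV share was 1.01 times the aged control share (0.877 to 1.16). With rod-type cells taken out of both members and denominator the young ratio was 1.09 (0.971 to 1.23). The aged ratio was then 0.893 (0.774 to 1.03). Members that also counted as rod-type numbered 117, 30, 7 and 16. The direction of the young ratio depended on the cells counted. The ratio was 0.966 when the rule was applied to cells thinned to 2000 UMIs. That setting dropped cells below this depth, which left 6591 young control and 8909 young CNV cells. The young ratio was 0.622 without members that held at least 3 genes of the mural, fibroblast or leukocyte lists. Such members numbered 152, 564, 20 and 94, so most young CNV members were left out there. Without those same members the ratios of aged to young share were 1.43 without laser and 1.93 with laser, beside 1.11 and 0.751 over all members. Against mural cells, the pericytes and smooth muscle that wrap the same vessels, there were 0.802, 0.924, 0.907 and 1.23 members per mural cell. Any cell with at least 4 genes of a mural list was counted as mural, so members with mural RNA could count on both sides. Members with at least 3 mural genes numbered 100, 222, 14 and 37, and their part in these ratios was not tested. The aged CNV share was 0.751 times the young CNV share (0.667 to 0.845), while aged CNV had the most members per mural cell so counted.

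**Figure D1:**
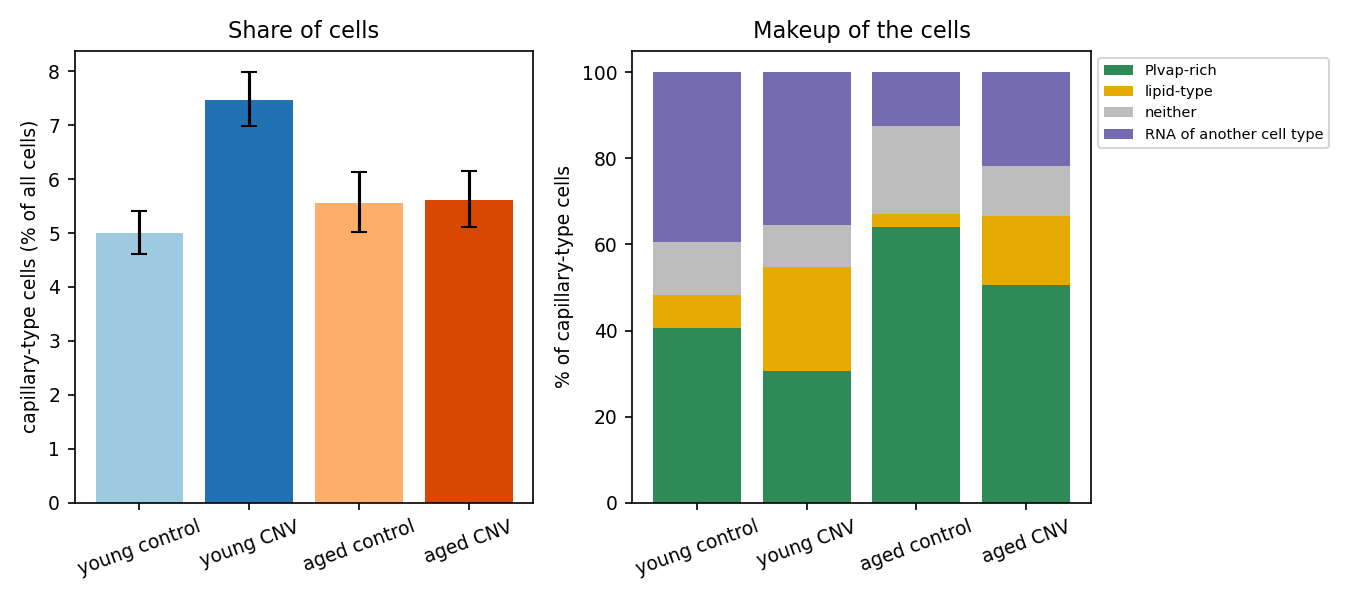
Left, members as a percentage of all cells in each library with exact 95% intervals; right, the makeup of the members by their own RNA, in percent of members. The young CNV bar at 7.47% lies above the other 3, and the lipid-type band is wider in both CNV libraries than in their controls.

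Members were not of one kind, and 4 ranges were set on each cell's own CPM after values had been seen. A cell went first to a range of cells with RNA of another cell type when any of 7 marker lists (mural, fibroblast, leukocyte, pigment epithelium, rod, surface epithelium, lymphatic endothelium) reached 2000 CPM. This held for 225 (39.4%), 288 (35.5%), 46 (12.4%) and 95 (21.9%) members, so the young libraries carried the most. Mural genes were the commonest source in young CNV, with 196 members over the threshold, and rod genes in young control, with 103. A doublet score was above 0.2 in 30, 44, 17 and 27 members, which were kept. Cells with RNA of another type were left out of the Plvap-rich, lipid-type and remaining ranges. They were kept in values over all members and in the shares of cycling members. They were also kept in the sorting by detected genes and in the comparison with venular cells.

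The largest of the remaining ranges was Plvap-rich, with at least 500 CPM of Plvap and little of the fatty acid genes. It held 232 and 249 members of the young control and CNV libraries and 238 and 219 of the aged ones. These are 67.1%, 47.5%, 73.2% and 64.6% of the members without RNA of another type. Plvap stood there at 3349, 2536, 2809 and 2406 CPM, and Igfbp3 at 1999, 2075, 1277 and 1844 CPM. Timp3, the inhibitor of matrix proteases that is deposited beneath the choroidal capillaries, stood at 8153, 6142, 5778 and 5773 CPM, against 1476 to 3021 CPM in members that were neither Plvap-rich nor lipid-type. Plvap-rich members also held the retinoic acid hydroxylase Cyp26b1, which stood at only 8.75 to 47.0 CPM in those other members. Around the threshold, 26, 37, 29 and 26 members lay between 250 and 500 CPM of Plvap, and 55, 67, 43 and 64 between 500 and 1000 CPM, so the range has no sharp edge.

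Members in neither range held more of the barrier genes Slc2a1, Slco1a4 and Lef1 in 3 libraries, and of Slc2a1 also in aged CNV. There were 70, 80, 76 and 50 such cells. Slc2a1, the glucose carrier of barrier vessels, stood at 1153, 574, 873 and 284 CPM in them, against 339, 210, 281 and 204 CPM in Plvap-rich members and 27.8 to 41.9 CPM in lipid-type members. Slco1a4 followed the same order, at 748, 349, 435 and 44.9 CPM in this range and 234, 128, 157 and 56.3 CPM in Plvap-rich members. The aged CNV library was the exception, with the lower Slco1a4 value in this range. Lef1, a transcription factor of the Wnt pathway, stood at 373, 176, 461 and 89.7 CPM against 157, 80.3, 186 and 114 CPM in Plvap-rich members, again with the reverse order in aged CNV. Spock2, a matrix proteoglycan, stood at 489, 291, 116 and 53.4 CPM. The arterial kinase Bmx was also high in this range, at 234, 97.8, 449 and 120 CPM against 11.1 to 41.0 CPM in Plvap-rich members, so the range held arterial as well as barrier transcripts.

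A similar contrast appeared when all members, those with RNA of another type included, were sorted by counts of detected genes instead of CPM. Members with a Plvap UMI and no UMI of 6 barrier genes (Mfsd2a, Slco1a4, Slco1c1, Foxq1, Lef1, Itm2a) were set beside members with at least 2 of those barrier genes and no Plvap. Ednrb, the endothelin receptor B, stood at 327, 282, 248 and 257 CPM in the former and 10.8, 9.87, 7.67 and 12.0 CPM in the latter. Rbp7, a retinol-binding protein, stood at 352, 115, 9.17 and 12.0 CPM in the former and at 0 to 4.94 CPM in the latter. In the barrier-type cells the tight junction gene Ocln stood at 108, 86.4, 88.2 and 12.0 CPM, against 0 to 9.17 CPM. In aged CNV the barrier-type cells numbered 8, and their values of Ednrb and Ocln rest on 1 UMI each. Ocln was at 12.0 against 7.20 CPM there, within counting error. The mast cell genes Cma1, Tpsb2, Cpa3 and Mcpt4 also led the barrier-type side, all through young CNV cells. Both classes were small. The Plvap side held 7.01%, 12.8%, 6.20% and 12.9% of members, and the barrier side 6.30%, 4.43%, 8.09% and 1.84%. Members with Plvap and at least 2 barrier genes made up 42.0%, 25.2%, 45.0% and 25.6%. Those with Plvap and 1 barrier gene made up 22.8%, 21.3%, 31.0% and 33.2%. Members with no UMI of either made up 17.2%, 30.9%, 5.93% and 22.1%.

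Lipid-type members, with at least 3000 CPM summed over Fabp4, Cd36, Gpihbp1 and Lpl, were more frequent in both CNV libraries. In young mice they were 44 of 571 members without laser (7.71%, 5.65 to 10.2) and 195 of 812 with laser (24.01%, 21.1 to 27.1). In aged mice they were 11 of 371 (2.96%, 1.49 to 5.24) and 70 of 434 (16.1%, 12.8 to 19.9). Of the members without RNA of another type these are 12.7%, 37.2%, 3.38% and 20.6%. Fabp4, a fatty acid carrier, stood at 12259, 17881, 7018 and 8253 CPM in them by the choice of cells. Genes that the choice did not use marked the same cells. Meox2, a transcription factor of fatty acid transporting capillaries, stood at 174, 109, 293 and 171 CPM, against 1.19 to 3.67 CPM in Plvap-rich members. Aqp7, a channel for glycerol, stood at 192, 162, 83.8 and 73.8 CPM against 0.396 to 1.16 CPM. Tcf15, which acts with Meox2, stood at 482, 435, 398 and 489 CPM against 49.0 to 121 CPM. Red cell and platelet genes summed to 19837 and 15828 CPM in the lipid-type members of the 2 young libraries, and to 126 and 115 CPM in those of the 2 aged libraries. Their part in the shares was not tested. Between 1500 and 3000 CPM of the 4 genes lay 9, 31, 6 and 23 members, and between 3000 and 6000 CPM lay 12, 43, 6 and 22. A list of lipid uptake genes that includes these 4 was also measured outside the members. Among all non-members, venular cells included, 5 of 12 were at least 2-fold higher in young CNV (median log2 ratio 0.62). In aged CNV they were 6 of 11 (median 1.19). In venular endothelium 1 of 9 was higher and 1 lower in young CNV (median -0.37), and 4 of 8 were higher in aged CNV (median 1.14).

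The share of cycling members was higher in the CNV libraries by the definition used here, and depended on depth. At least 4 of 14 cell cycle genes were detected in 5 of 571 young control members (0.876%, 0.285 to 2.03) and 30 of 812 of young CNV (3.69%, 2.51 to 5.23). The aged libraries had 0 of 371 without laser, which allows a share of up to 0.809% (3 cells of the total), and 13 of 434 with laser (2.995%, 1.60 to 5.07). The cycling cells were also the deepest, with a median of 40694 UMIs in young CNV and 22416 in aged CNV, against 7949 and 6209 in the other members. With each member thinned to 2000 UMIs, and 3 genes of the longer cell cycle list asked for, the shares were 1.08%, 4.21%, 0.00% and 4.35%. Without thinning that longer list gave 32.6%, 31.7%, 6.20% and 15.2%, so the young libraries were then close to each other. Of the cycling members 3, 13, 0 and 2 carried RNA of another cell type. Over all members Mki67, a protein of dividing cells, stood at 8.93, 33.3, 0.361 and 36.4 CPM. Top2a, which untangles DNA, stood at 9.23, 34.6, 0.361 and 42.9 CPM, and Birc5, which acts in chromosome segregation, at 7.29, 33.8, 0 and 28.8 CPM. Among all cells that were not members, Mki67 stood at 24.5, 35.0, 5.70 and 34.0 CPM.

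**Figure D2:**
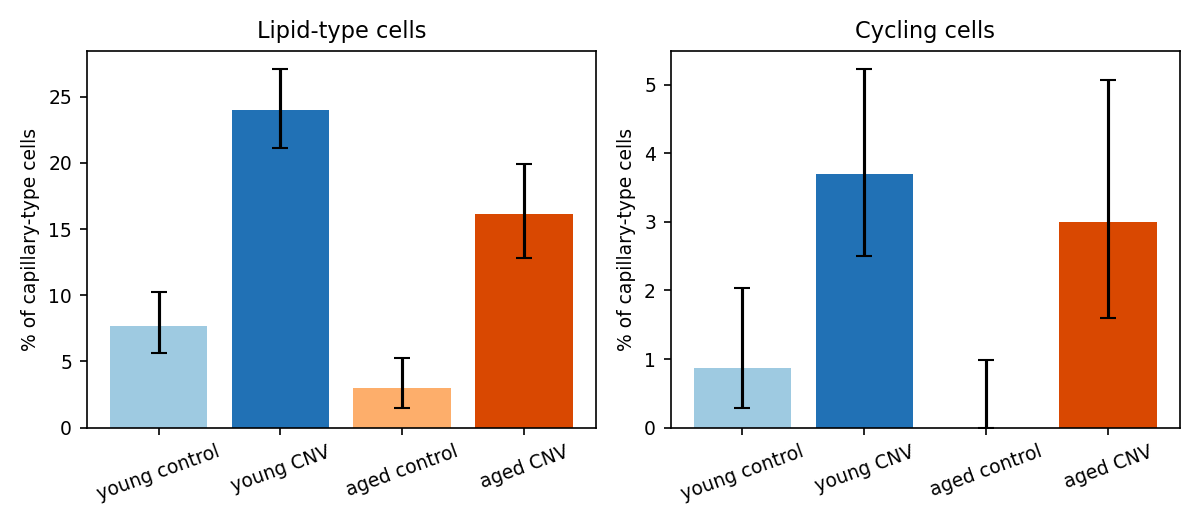
Lipid-type members (left) and cycling members (right) as a percentage of all members in each library, with exact 95% intervals. In both panels each CNV bar lies above its own control, from 7.71% to 24.01% and from 2.96% to 16.1% for lipid-type cells, and no cycling cell was found in aged control.

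Cycling members differed from the others in vessel genes as well. Among members without RNA of another type, 17 cycling cells of young CNV had 272 CPM of Plvap and the 507 others 1569 CPM. In aged CNV the values were 512 CPM in 11 cycling cells and 1788 CPM in 328 others. Flt1, the decoy receptor of VEGF, was likewise lower, at 645 against 2904 CPM and 837 against 4322 CPM. Vim, an intermediate filament protein, was higher, at 9351 against 1703 CPM and 3778 against 921 CPM. Col18a1, the collagen that gives rise to endostatin, stood at 1117 against 240 CPM and 617 against 223 CPM. Aplnr, the receptor of apelin, stood at 194 against 109 CPM in young CNV and 384 against 29 CPM in aged CNV, and Col4a1, a chain of basement membrane collagen, at 2585 against 1481 and 2310 against 1061 CPM. Members were chosen by detecting Plvap and Flt1 among others, which deeper cells reach at lower levels.

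Many interferon-induced genes were higher in capillaries of the CNV library than of the control library, in young and in aged mice. Interferons act on endothelial cells through surface receptors and the transcription factors these activate, and they switch on antiviral proteins, immunity GTPases and antigen presentation. Over all members and genes with at least 50 UMIs, 4% of genes were at least 2-fold higher and 4.14% at least 2-fold lower after laser in young mice, and 6.2% and 1.3% in aged mice. Within Plvap-rich members the background was 2.08% higher and 0.911% lower in young, and 3.07% higher and 0.89% lower in aged. Against that, 17 of 23 measured genes of the type I interferon list were at least 2-fold higher in Plvap-rich members of young CNV, and 16 of 22 in aged CNV, with none lower in either. The median log2 ratio of the list was 1.40 in young and 1.65 in aged, beside -0.02 and -0.01 over all genes tested. Over all members the counts were 13 of 24 and 17 of 24.

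Isg15, a ubiquitin-like antiviral protein, stood at 112 and 378 CPM in Plvap-rich members of the young control and CNV libraries, and at 49.0 and 175 CPM in those of the aged ones. It was 3.36-fold higher after laser in young (2.95 to 3.85) and 3.57-fold in aged mice (2.80 to 4.60). The aged control library held the lowest level of Isg15, and both CNV libraries lay above both controls. Ifit3, an RNA-binding antiviral protein, stood at 17.3, 181, 16.5 and 167 CPM, 10.5-fold (7.69 to 14.5) and 10.1-fold (6.88 to 15.4) higher. Its near copy Ifit3b stood at 7.70, 72.0, 3.42 and 58.8 CPM, and reads of such copies can be split between them. Ifit1, of the same family, stood at 36.2, 165, 13.7 and 113 CPM. All 3 Ifit genes thus showed the same order of the libraries, with the 2 CNV libraries high and the 2 controls low.

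Sensors and transcription factors of the response followed. Zbp1, a sensor of unusual nucleic acid helices, stood at 4.62, 87.8, 7.41 and 50.8 CPM and was 19.0-fold (10.7 to 37.4) and 6.86-fold (3.80 to 13.4) higher. Irf7, the factor that amplifies type I interferon, stood at 15.4, 110, 14.8 and 72.3 CPM, 7.17-fold and 4.88-fold higher. Stat2 stood at 37.7, 74.0, 73.5 and 141 CPM, so that young CNV and aged control were level. Irf9 stood at 68.2, 101, 47.9 and 116 CPM.

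Among abundant membrane proteins of the list, Ifitm3, which blocks virus entry, stood at 1237, 2597, 937 and 2009 CPM. Bst2, which tethers virus particles, stood at 380, 1048, 277 and 570 CPM, 2.76-fold (2.56 to 2.97) and 2.06-fold (1.84 to 2.30) higher. Ly6e stood at 893, 1682, 885 and 1479 CPM. Between 76.5% and 99.1% of the Plvap-rich cells of a library held UMIs of each of these 3 genes, and no single cell held more than 8.49% of their UMIs. Ly6a, the surface protein known as Sca-1 and outside the list, stood at 498, 1499, 661 and 1689 CPM, 3.01-fold (2.82 to 3.21) and 2.56-fold (2.39 to 2.74) higher. Rsad2, the antiviral enzyme viperin, stood at 127, 355, 177 and 227 CPM and was 2.79-fold higher in young (2.45 to 3.17) and 1.28-fold in aged (1.10 to 1.50).

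Detection of the list was counted per cell, a measure that most control cells already met. With each Plvap-rich member thinned to 2000 UMIs, at least 3 genes of the type I list were detected in 186 of 230 young cells without laser (80.9%, 75.2 to 85.7) and 224 of 242 with laser (92.6%, 88.5 to 95.5). In aged mice they were detected in 157 of 224 (70.1%, 63.6 to 76.0) and 190 of 216 (88.0%, 82.9 to 92.0). The share of these counts that is free RNA was not tested. The cell with the most UMIs of the list held 10.1% of them in young CNV and 2.40% to 3.05% elsewhere. Without that cell in each library, 15 of 23 genes were at least 2-fold higher in young, with a median of 1.32, and 16 of 22 in aged, with a median of 1.69.

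**Figure D3:**
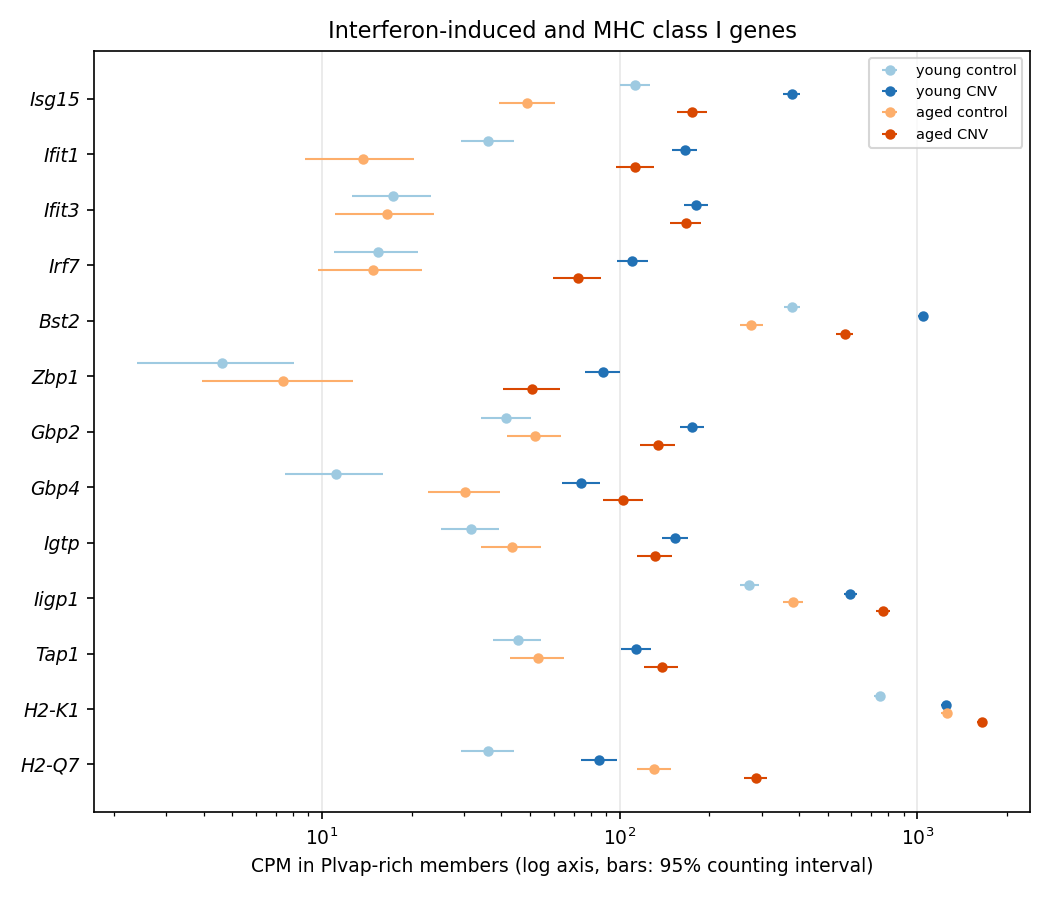
CPM of 13 interferon-induced and antigen presentation genes in Plvap-rich members of the 4 libraries on a log axis, with 95% counting intervals. For each gene the darker CNV point lies to the right of the paler control point of the same age, and H2-Q7 and Gbp4 are also higher in aged than in young libraries.

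Genes of the interferon gamma list, led by the guanylate-binding proteins and the immunity GTPases that attack vacuoles of pathogens, moved the same way. In Plvap-rich members 16 of 22 were at least 2-fold higher in young CNV with a median log2 ratio of 1.38, and 12 of 22 in aged CNV with a median of 1.03. Gbp2 stood at 41.6, 175, 51.9 and 135 CPM, 4.21-fold (3.40 to 5.24) and 2.60-fold (2.03 to 3.35) higher. Gbp4 stood at 11.2, 74.4, 30.2 and 103 CPM. Gbp6 stood at 8.86, 75.6, 21.7 and 45.9 CPM, and the larger ratio was again the young one, 8.53-fold against 2.12-fold. Igtp, an immunity GTPase, stood at 31.6, 154, 43.3 and 132 CPM, and Iigp1, another, at 273, 596, 383 and 768 CPM. Irf1, the factor that interferon gamma acts through, was not among them, with 560, 355, 446 and 460 CPM and a level 1.58-fold lower in young CNV (1.45 to 1.72). Guanylate-binding and GTPase genes form families of near copies, so the level of 1 member is uncertain.

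Promoters of the 2 interferon lists held a known interferon response motif more often than promoters at large. These lists were made of genes known to be induced by interferon, so this describes the lists and not the cells. The letters GAAANNGAAA were searched on both strands in the 250 bases before each gene's start, in RefSeq promoters of GRCm38.p6. A gene was counted when any of its promoters held them. They were found for 936 of 27025 genes (3.46%), for 9 of 18 of the type I list and for 11 of 18 of the gamma list (61.1%). In the MHC class I list they were found for 3 of 12 genes. None was found for 12 immediate early, 11 basement membrane or 5 lipid uptake genes, lists too short to tell from 3.46%. The windows of 5 genes named here are printed 5′ to 3′ on the strand of the gene, as examples of genes described here whose promoters hold the motif. The first match is in capitals, and where it lies on the opposite strand the capitals show its reverse complement. A match is a description, not a site.
Isg15 (chr4:156200867-156200916, minus strand): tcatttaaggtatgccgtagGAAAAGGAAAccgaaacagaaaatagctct
Ifit3 (chr19:34583353-34583402, plus strand): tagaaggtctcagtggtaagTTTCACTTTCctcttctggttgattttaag
Rsad2 (chr12:26456543-26456592, minus strand): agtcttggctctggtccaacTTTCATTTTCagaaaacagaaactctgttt
Igtp (chr11:58199502-58199551, plus strand): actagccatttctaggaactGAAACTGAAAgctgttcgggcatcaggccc
Gbp2 (chr3:142620584-142620633, plus strand): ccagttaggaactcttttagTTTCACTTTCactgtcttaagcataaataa

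These matches lie 78 bases before the start of Isg15, 156 before Ifit3, 120 before Rsad2, 34 before Igtp and 59 before Gbp2. Isg15 holds 3 matches, Ifit3 holds 2 and the other promoters 1 each.

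Antigen presentation by MHC class I differed less. In Plvap-rich members 5 of 14 genes were at least 2-fold higher in young CNV (median log2 ratio 0.82) and 2 of 14 in aged CNV (median 0.53). Without the cell richest in interferon UMIs the young count was 3 of 14. Tap1, which pumps peptides into the endoplasmic reticulum, stood at 45.4, 114, 53.02 and 138 CPM, 2.50-fold (2.01 to 3.12) and 2.61-fold (2.04 to 3.36) higher. Psmb8, a subunit of the immunoproteasome, stood at 110, 282, 127 and 195 CPM. The light chain B2m stood at 1489, 2014, 946 and 1045 CPM, so laser went with a ratio of 1.35 in young (1.30 to 1.41) and 1.10 in aged (1.03 to 1.18). The heavy chain H2-K1 stood at 747, 1246, 1257 and 1656 CPM. Cd274, the checkpoint ligand PD-L1, stood at 35.0, 66.5, 47.9 and 104 CPM. Class II genes were low, with H2-Aa at 17.3, 49.1, 34.2 and 39.8 CPM and its chaperone Cd74 at 34.3, 70.4, 75.8 and 87.0 CPM, beside a summed leukocyte marker level of 42.0, 156, 81.5 and 121 CPM in the same cells. The part of leukocyte RNA in the class II values was not tested.

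Capillaries were not alone in this. Among all cells that were not members, venular cells included, 11 of 24 type I genes were at least 2-fold higher in young CNV (median log2 ratio 0.96). In aged CNV they were 21 of 24 (median 1.71). In venular endothelium alone the counts were 12 of 23 (median 1.09) and 18 of 23 (median 1.67). For the gamma list they were 5 of 24 (median 0.60) and 10 of 24 (median 0.94) in the other cells, and 4 of 21 (median 0.62) and 9 of 19 (median 0.92) in venular endothelium. Whether capillaries differed from these cells was not tested. Igtp stood at 23.7 CPM in other cells of young CNV and 90.5 CPM over all members there, and Gbp4 at 3.53 and 52.7 CPM.

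**Figure D4:**
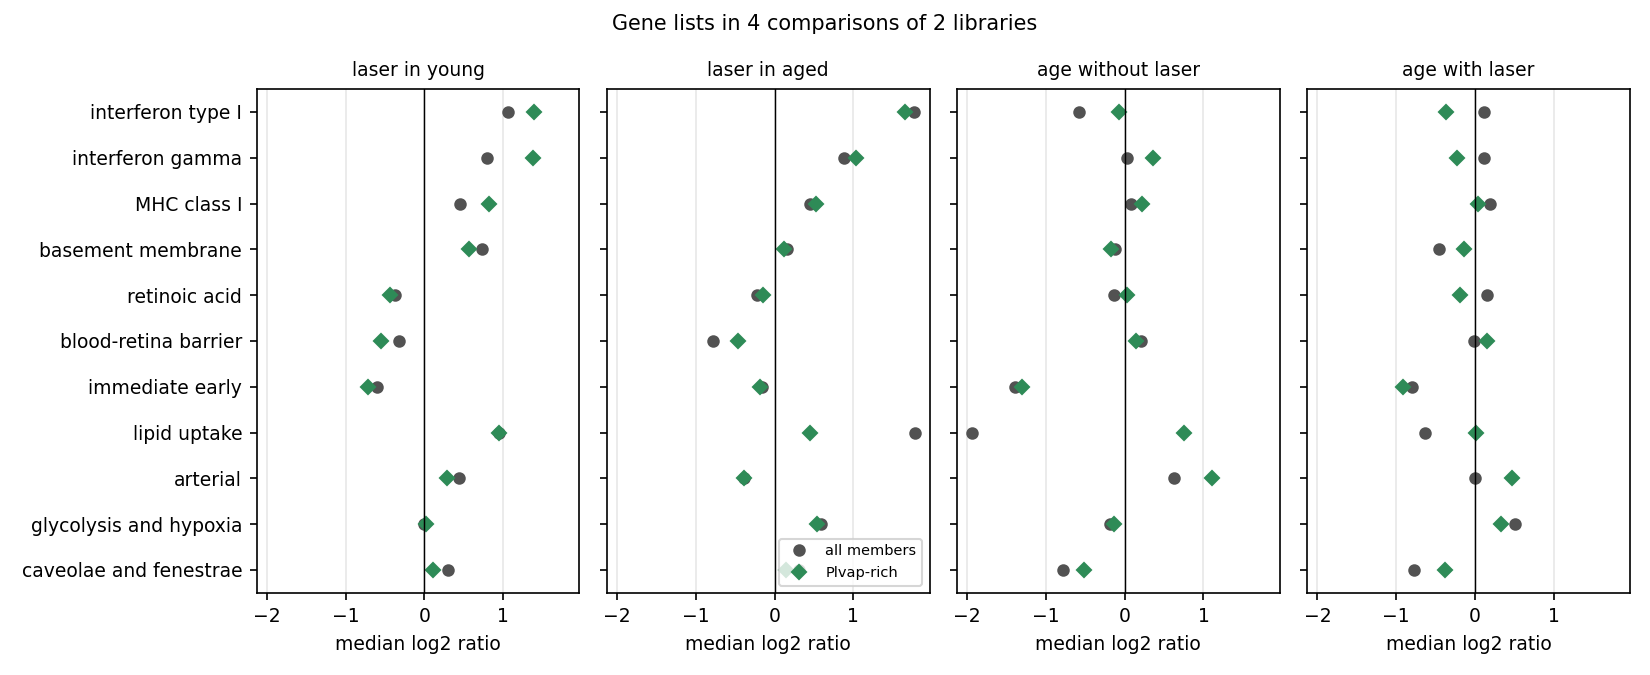
Median log2 ratio of 11 gene lists in each comparison of 2 libraries, over all members (circles) and over Plvap-rich members (diamonds). Both interferon lists lie to the right of 0 in both laser comparisons, the immediate early list lies to the left in all 4, and the lipid uptake list is the one whose circles and diamonds part most. Genes of the lipid uptake list set the upper limit of the Plvap-rich range, so that gap is a description.

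Few genes of the vessel wall passed 2-fold after laser. Of 15 basement membrane genes 1 was at least 2-fold higher in Plvap-rich members of young CNV and none in aged CNV, with medians of 0.56 and 0.12. Col4a1 stood at 825, 1219, 825 and 1181 CPM, 1.48-fold (1.40 to 1.56) and 1.43-fold (1.34 to 1.53) higher, and its partner chain Col4a2 at 507, 666, 529 and 744 CPM. Sparc, a collagen-binding matrix protein, stood at 1311, 2070, 876 and 1559 CPM. For these 3 genes each CNV library lay above its control. Col18a1 stood at 66.6, 180, 211 and 230 CPM, so it was 2.70-fold higher in young CNV (2.26 to 3.24) while the aged control was already above that level. Fibroblast markers, many of them collagens, summed to 140, 533, 50.7 and 99.8 CPM in these cells, and their part in the collagen values was not tested.

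Genes of sprouting tip cells did not move as a group. Of 14 measured, 1 was at least 2-fold higher in young CNV (median 0.23), and 3 were higher and 2 lower in aged CNV (median 0.40). Esm1, a proteoglycan of tip cells that choroidal capillaries also express, was 2.30-fold lower in aged CNV (2.001 to 2.64), at 307, 256, 405 and 176 CPM. Trp53i11 was 3.14-fold higher there (2.55 to 3.90), at 206, 178, 68.4 and 215 CPM, where aged control was the low library. Angpt2, the ligand that loosens the vessel wall, stood at 27.7, 31.3, 75.2 and 37.4 CPM. Pgf, placental growth factor, stood at 5.39, 42.3, 1.14 and 16.5 CPM, and 1 cell held 70.1% of its UMIs in young CNV. Aplnr stood at 17.7, 87.4, 18.8 and 34.9 CPM, 4.94-fold higher in young CNV (3.58 to 6.94) with UMIs in 35 of 249 cells. Lrg1, a secreted modifier of TGF-beta signalling in vessels, stood at 95.5, 179, 121 and 291 CPM and was 1.88-fold (1.60 to 2.20) and 2.41-fold (2.04 to 2.84) higher. Vwa1, a matrix protein, stood at 53.5, 108, 50.2 and 110 CPM.

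The VEGF receptors themselves were lower after laser by small ratios. Kdr, the main signalling receptor, stood at 2439, 1906, 2871 and 2041 CPM, and Flt1 at 4085, 3404, 6370 and 4828 CPM. Both are genes of the rule. The VEGF list had medians of -0.04 and -0.08, near 0 in both ages.

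Barrier genes had medians below 0 in both CNV libraries, and few passed 2-fold. In Plvap-rich members the list had medians of -0.55 in young and -0.47 in aged, with none of 11 genes past 2-fold in young and 2 of 12 lower in aged. Of the norrin and Wnt list none passed 2-fold among 10 genes in young (median -0.17) and 8 in aged (median -0.36). Slco1a4 stood at 234, 128, 157 and 56.3 CPM, 1.83-fold (1.60 to 2.10) and 2.78-fold (2.19 to 3.56) lower. Lef1 stood at 157, 80.3, 186 and 114 CPM, 1.96-fold (1.65 to 2.33) and 1.64-fold (1.36 to 1.97) lower. Abcb1a, the drug efflux pump P-glycoprotein, stood at 334, 216, 334 and 241 CPM, and Slc2a1 at 339, 210, 281 and 204 CPM. For each of these 4 genes both controls lay above the CNV library of the same age. The range chosen by Plvap can hold a varying share of barrier vessels, and its part in these ratios was not tested. In venular endothelium 6 of 10 barrier genes were at least 2-fold lower in young CNV (median -1.12) and 7 of 11 in aged CNV (median -1.15). Among all non-members, venular cells included, 5 of 16 were lower in young CNV (median -0.76). In aged CNV 6 of 16 were lower there and 1 higher (median -0.14).

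Retinoic acid genes differed after laser mainly in young mice, a contrast between ages that was not tested. Cyp26b1 breaks down retinoic acid and stood at 366 and 73.6 CPM in Plvap-rich members of the young control and CNV libraries, and at 555 and 695 CPM in those of the aged ones. It was 4.98-fold lower after laser in young (4.25 to 5.85) and 1.25-fold higher in aged (1.15 to 1.37). UMIs of it were found in 140, 72, 154 and 154 of these cells. Lipid-type members had 101, 20.8, 377 and 282 CPM, so young CNV was the low library there as well. In venular endothelium Cyp26b1 stood at 101, 7.69, 140 and 105 CPM, with the same low library. Rarb, a receptor of retinoic acid, stood at 177, 87.4, 251 and 211 CPM, 2.02-fold lower in young (1.72 to 2.38) and 1.19-fold lower in aged (1.03 to 1.37). Of 8 measured genes of the list, 1 was at least 2-fold higher and 3 lower in young CNV, and none passed 2-fold in aged CNV.

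Among the genes lower in young CNV by an added rule (the 8 per side nearest the top by the interval bound in Plvap-rich members, chosen after values were seen) were Cyp26b1, Rarb, Ihh, Egr1, Egr3 and Id4. Ihh, the hedgehog ligand made by choroidal endothelium, stood at 126, 49.1, 60.4 and 33.1 CPM, 2.56-fold lower in young (2.07 to 3.17) and 1.83-fold in aged (1.30 to 2.58). Egr1, an immediate early factor, stood at 2806, 1373, 1095 and 1107 CPM. In the aged comparison the lower genes included Slco1a4, Nr4a1, Hilpda, Esm1, Spry1, Foxf1, Btnl9 and Mmp16. Spry1, a brake on growth factor signalling, stood at 278, 164, 147 and 61.2 CPM, 1.69-fold (1.50 to 1.91) and 2.40-fold (1.90 to 3.06) lower. Foxf1, a factor of mesoderm-derived vessels, stood at 37.0, 18.6, 42.2 and 12.2 CPM. Hilpda, a lipid droplet protein, stood at 274, 168, 217 and 87.0 CPM. Ihh, Spry1, Foxf1 and Hilpda were lower in the CNV library of both ages, while Egr1 was level in aged mice.

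The genes higher in aged CNV by that rule were led by Gpihbp1, which anchors lipoprotein lipase, at 125, 176, 55.3 and 292 CPM, 5.28-fold higher in aged (4.24 to 6.64) and 1.41-fold in young (1.22 to 1.63). Gpihbp1 was 1 of the 4 genes that set the upper limit of the range, so this value is a description. Upp1, which splits uridine, stood at 53.5, 87.4, 21.1 and 84.5 CPM, 4.01-fold higher in aged (2.77 to 5.93). Some glycolytic genes were higher in aged CNV. Pkm stood at 184, 202, 144 and 330 CPM, Pgk1 at 83.6, 92.2, 39.9 and 90.6 CPM and Gapdh at 421, 463, 261 and 467 CPM. Of the list, 3 of 14 were at least 2-fold higher and 1 lower in aged, with a median of 0.54, beside 0.02 in young. Pgk1 and Gapdh were lowest in aged control, while the other 3 libraries were close to each other. In the cells that were not members, Gapdh stood at 836, 764, 621 and 883 CPM.

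Age came with more differences than laser. Over all members 7.8% of genes were at least 2-fold higher and 8.2% at least 2-fold lower in aged control than in young control, and 9.72% higher and 4.75% lower in aged CNV than in young CNV. Within Plvap-rich members the shares were 6.18% higher and 4.45% lower without laser, and 6.43% higher and 4.1% lower with laser. The control libraries also enter the laser comparisons, and age cannot be told apart from the pair of libraries that carries it.

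Rgcc, a regulator of the cell cycle, was among the genes lowest in age. It stood at 2372 and 2138 CPM in Plvap-rich members of the young control and CNV libraries and at 566 and 470 CPM in those of the aged ones, 4.19-fold lower without laser (3.92 to 4.49) and 4.54-fold with laser (4.21 to 4.91). Both young libraries lay far above both aged ones. Lipid-type members had 1830, 2323, 712 and 893 CPM, and venular endothelium 979, 506, 156 and 136 CPM, with the same order of young above aged. Sox18, a transcription factor of endothelial identity, stood at 477, 467, 148 and 138 CPM, 3.23-fold (2.82 to 3.71) and 3.37-fold (2.92 to 3.91) lower. Bambi, a decoy receptor of BMP and TGF-beta, stood at 331, 250, 82.7 and 74.7 CPM. Cdkn1a, the inhibitor of cell division p21, was lower too, at 603, 579, 226 and 259 CPM, 2.67-fold (2.39 to 2.99) and 2.24-fold (2.01 to 2.50).

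Meis2, a homeodomain transcription factor, was among the genes highest in age, at 62.4, 62.5, 573 and 420 CPM, 9.18-fold (7.77 to 10.9) and 6.72-fold (5.65 to 8.04) higher. Its UMIs lay in 51, 41, 90 and 88 Plvap-rich cells, and in cells that were not members it stood at 145, 68.9, 234 and 297 CPM. In members with barrier genes and no Plvap the log2 ratio of Meis2 for age without laser was -0.0137. Rb1, the retinoblastoma tumour suppressor, stood at 174, 157, 576 and 505 CPM, 3.30-fold (2.95 to 3.70) and 3.21-fold (2.85 to 3.63) higher, in most Plvap-rich cells of each library. Grm7, a glutamate receptor of neurons, stood at 13.1, 28.1, 402 and 213 CPM, but in only 41 of 238 aged control and 33 of 219 aged CNV cells. Lars2, the mitochondrial leucyl-tRNA synthetase, stood at 117, 155, 945 and 672 CPM over all members. Its level in all cells that were not members was 106, 135, 773 and 536 CPM, so Lars2 differed alike across the libraries.

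Some single genes of vessel signalling were higher in aged libraries, named here after their values were seen. Bmp6, made by endothelium and best known for setting hepcidin, stood at 73.5, 72.4, 214 and 202 CPM, 2.91-fold (2.44 to 3.48) and 2.78-fold (2.32 to 3.35) higher. Vegfc, the lymphatic growth factor, stood at 28.5, 25.3, 111 and 82.1 CPM, 3.90-fold (2.97 to 5.17) and 3.24-fold (2.39 to 4.44) higher. The receptor Bmpr2 stood at 948, 897, 1860 and 1382 CPM. For these 3 genes both aged libraries lay above both young ones. Sema3c, a guidance factor, stood at 65.5, 45.1, 166 and 157 CPM. Fli1, an ETS factor of endothelium, stood at 398, 313, 770 and 661 CPM. Cyp26b1 was 1.51-fold higher without laser (1.38 to 1.66) and 9.45-fold with laser (8.08 to 11.1), the latter through the low level in young CNV.

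Arterial genes were mostly higher in aged control. Of 11 measured in Plvap-rich members, 7 were at least 2-fold higher without laser, with a median of 1.11, and 3 with laser, with a median of 0.47. Cxcl12, the chemokine of arterial endothelium, stood at 357, 573, 917 and 794 CPM. Efnb2, the arterial ephrin, stood at 164, 200, 383 and 279 CPM, 2.34-fold (2.07 to 2.65) and 1.40-fold (1.23 to 1.59) higher. Gja4, a gap junction protein, stood at 33.5, 54.6, 74.7 and 160 CPM, and Sox17, an arterial transcription factor, at 73.5, 80.7, 149 and 113 CPM. Efnb2, Cxcl12 and Sox17 were highest in aged control, whereas Gja4 was highest in aged CNV. The share of arterial cells in the range was not tested.

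**Figure D5:**
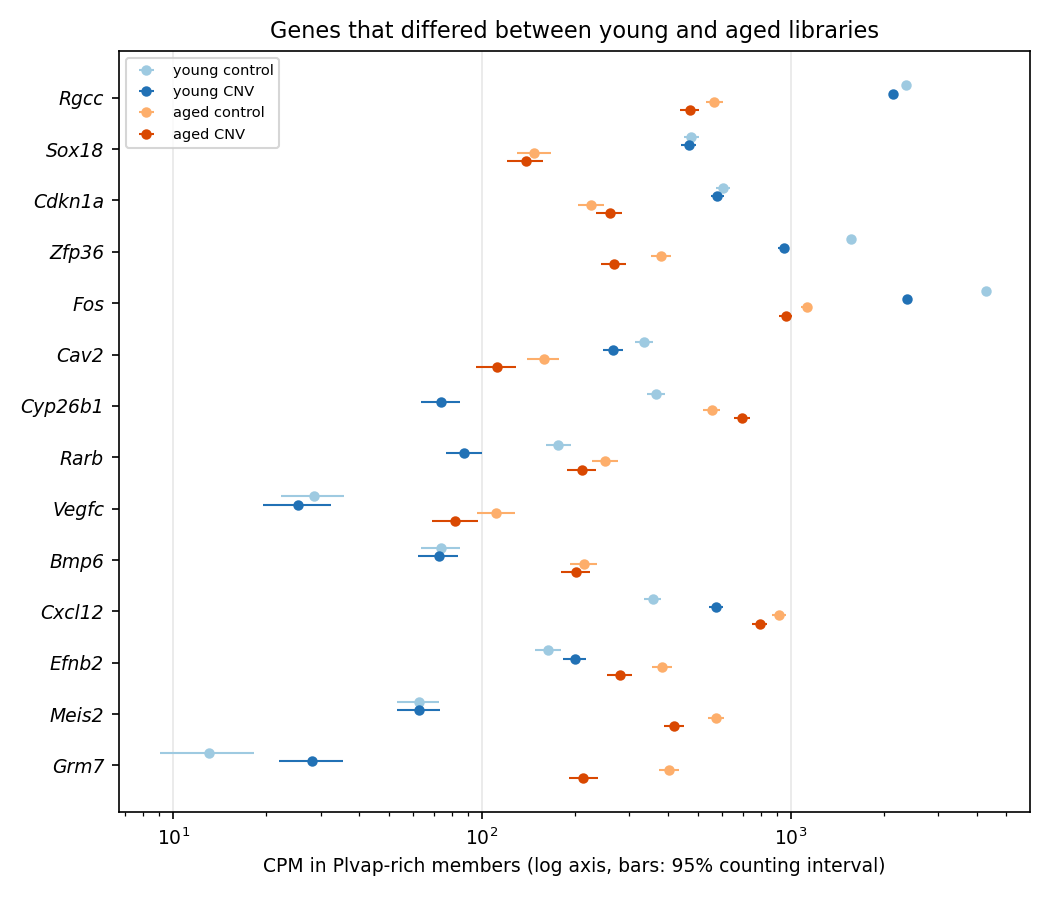
CPM of 14 genes that differed between young and aged libraries in Plvap-rich members, on a log axis with 95% counting intervals. Rgcc, Sox18, Cdkn1a, Zfp36, Fos and Cav2 lie to the right in both young libraries, Meis2, Grm7, Bmp6 and Vegfc in both aged ones, and Cyp26b1 and Rarb are lowest in young CNV.

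Immediate early genes, which are switched on within minutes of a stimulus, were lower in aged libraries. In Plvap-rich members 9 of 14 were at least 2-fold lower in aged control than in young control (median -1.30) and 6 of 14 in aged CNV than in young CNV (median -0.91). Fos stood at 4287, 2380, 1126 and 963 CPM, 3.81-fold (3.63 to 3.996) and 2.47-fold (2.34 to 2.61) lower in age. Junb stood at 2813, 1811, 968 and 746 CPM and Zfp36, which destabilizes inflammatory mRNA, at 1565, 948, 381 and 267 CPM. The order from young control down to aged CNV was the same for Fos, Junb and Zfp36. Jun stood at 3124, 2252, 1115 and 1238 CPM. Other cells showed the same direction. Among all non-members, venular cells included, 11 of 15 genes were at least 2-fold lower without laser (median -1.65) and 5 with laser (median -0.78). In venular endothelium they were 11 of 14 (median -1.47) and 10 of 15 (median -1.11). Laser in young mice came with a median of -0.72 in Plvap-rich members and -0.20 in the other cells.

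Single genes of caveolae and flow were lower in aged libraries. Cav2, a caveolin, stood at 335, 266, 158 and 111 CPM, 2.11-fold (1.84 to 2.43) and 2.39-fold (2.02 to 2.83) lower, and was the only one of 7 caveolar genes past 2-fold in either comparison. Its partner Cav1 stood at 270, 360, 250 and 277 CPM. Of 8 genes of the flow list none was at least 2-fold lower without laser (median -0.18) and 1 with laser (median -0.38). Klf2, the flow-induced factor, stood at 3322, 3065, 1953 and 1566 CPM. Icam2, an adhesion molecule of resting endothelium, stood at 296, 340, 142 and 192 CPM. Cav2, Klf2 and Icam2 were above both aged libraries in both young ones.

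MHC class I genes of different families differed in opposite directions with age. H2-Q7 stood at 36.2, 85.5, 131 and 287 CPM, 3.61-fold (2.82 to 4.64) and 3.35-fold (2.85 to 3.96) higher in aged libraries, and H2-Q6 at 15.8, 33.2, 89.5 and 144 CPM. H2-T23, which presents leader peptides to natural killer receptors, stood at 177, 332, 70.1 and 102 CPM, 2.53-fold (2.07 to 3.11) and 3.27-fold (2.76 to 3.88) lower. H2-D1 stood at 1100, 1520, 755 and 831 CPM. H2-Q7 was lowest in young control and highest in aged CNV. These genes are near copies of each other and vary between mouse strains, so the reads that each received are uncertain. H2-T23 in the cells that were not members stood at 99.3, 151, 24.6 and 43.2 CPM.

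The type I interferon list was not higher in age. In Plvap-rich members 1 of 21 genes was at least 2-fold higher and 5 lower without laser (median -0.07), and 1 of 23 higher and 2 lower with laser (median -0.37). Isg15 was 2.29-fold lower in aged control (1.80 to 2.95), Usp18, which removes the Isg15 tag, 3.06-fold (1.73 to 5.77), and Ifit3 1.05-fold (0.643 to 1.73). The acute phase list had medians of 0.56 and 0.74 in the aged comparisons. Bcl3, a cofactor of NF-kappa B, stood at 13.9, 18.2, 40.5 and 48.4 CPM.

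Over all members, the genes with the largest ratios by the rule set for named genes were mostly genes of other cells. In the young laser comparison the mast cell genes Tpsb2, Mcpt4, Cma1 and Cpa3 led the higher side, and 94.7% to 97.7% of their UMIs came from 1 young CNV cell. Keratin and mucosal genes (Rbp2, Muc1, Krt6b, Serpinb3a, Calml3) led the lower side. In the aged laser comparison Cfd, Mmp13 and Cxcl13 led, again with 42.4%, 97.9% and 79.4% of their UMIs in 1 cell. Lcn2, an acute phase protein, stood at 7.59, 14.8, 3.25 and 101 CPM over all members. In Plvap-rich members of aged CNV it stood at 11.02 CPM, with 143 CPM in cells that were not members. Without laser the ratio between the ages was largest for Krt15, which stood at 1703, 268, 0.361 and 274 CPM over all members. Summed epithelial markers over all members were 776, 200, 40.7 and 136 CPM, mural markers 1644, 2673, 403 and 491 CPM and fibroblast markers 1330, 2877, 173 and 1152 CPM. Rgs5, a pericyte gene, stood at 1074, 1631, 145 and 210 CPM over all members.

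All members, those with RNA of another type included, were set beside the venular cells only as a description, since the rule parts them. Venular cells are the Ackr1 or Selp cells that met the same count of endothelial genes. Venular cells numbered 64, 105, 43 and 99, or 10.1% (7.85 to 12.7), 11.5% (9.46 to 13.7), 10.4% (7.62 to 13.7) and 18.6% (15.4 to 22.1) of endothelial cells. The aged CNV library thus had the largest venular share. The median venular cell held 12393, 12544, 7315 and 10882 UMIs, and the median member 9064, 8236, 6425 and 6251. Because 1 UMI of Ackr1 or Selp decides the call, shallow venular cells can count as members. The part of depth in these shares was not tested. Of 10254 genes, 263 were higher in members and 226 in venular cells in all 4 libraries. Among those higher in members were Gpihbp1, Gja4, Hilpda, Rsad2, Cyp26b1, Rgcc and the water channel Aqp1, together with the mural genes Myh11, Rgs5 and Myl9 and the myeloid gene Lyz2, with log2 ratios for Rsad2 of -2.37, -1.42, -3.07 and -1.03 of venular over capillary. Among those higher in venular cells were the adhesion receptor Adgrg6, the protease Tll1 and the prostaglandin carrier Slco2a1, together with the cone genes Opn1mw and Pde6h. Vwf, the clotting factor stored in venous endothelium, stood at 231, 201, 289 and 237 CPM in members and at 438, 565, 702 and 493 CPM in venular cells.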

How the data were processed

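The deposited file is 1 matrix of raw UMI counts, 24783 genes by 36701 cells, which the authors made with Cell Ranger (version not given) on mm10, with Seurat 4.1.1 also named, per the submitters' processing notes. The 4 libraries were told apart by the prefix of the cell names, and a prefix starting with e was read as aged. Cell filters before deposit are not stated, and no doublets were removed for the values reported.

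The rule was applied to each cell as deposited. UMI counts were summed over members per library and given as CPM with exact Poisson intervals, ratios of 2 libraries with exact conditional binomial intervals and shares with Clopper-Pearson intervals, all at 95%. A library at 0 was given 3 counts. A gene was measured where the 2 libraries together held at least 50 UMIs, and counts at 2-fold leave out the 11 genes of the rule. With 1 library per group there is no p-value. The ratio code was tested on simulated data.

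The members and gene lists were chosen with earlier results of these data known. Genes named by rule are the 10 per side that rank first by the interval bound nearest 0, at 0.5 or more of the CPM of the other cells, without mitochondrial, ribosomal, haemoglobin, immunoglobulin and sex-linked marker genes and unnamed gene models. An added rule took 8 per side in Plvap-rich members, at 2 or more times the CPM of the other cells. From each list up to 4 genes were named by the same ranking, along with genes whose role is described. Some list members are not reported here.

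Alternatives, described in the closing section, were thinning cells to 1000 or 2000 UMIs, 4 or 6 genes of the rule, other filters at 1, 20 and 200 UMIs, leaving out rod-type, cycling, doublet-scored (Scrublet, 0.2) or mixed cells, subsets of members, and TMM and median-of-ratios scaling. Cells with fewer UMIs than the depth named were dropped wherever cells were thinned. Python 3.11.15, numpy 2.4.6, scipy 1.17.1, scanpy 1.11.5, R 4.3.3 and edgeR 4.0.16 (scaling factors only) were used. Promoter sequences are from RefSeq, GRCm38.p6.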

Additional observations from a re-analysis of the deposited data

Results flagged for a closer look

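The log2 ratio of laser to control over all members pointed in opposite directions in young and aged mice for 4 genes. The difference between the ages was not tested. For Calml3, a calmodulin-like protein of surface epithelium, it was -3.17 in young and 4.99 in aged. Krt6b, a keratin, had -3.53 and 4.66, and Rbp2, a retinol-binding protein of epithelium, had -4.11 and 4.29. Nts, the precursor of neurotensin, had -0.73 and 4.13. All 4 genes had 0 UMIs in aged control members, so the aged ratios are lower bounds against a floor of 3 counts in that library. In the young control library 867, 212, 1713 and 1504 UMIs of Rbp2, Nts, Calml3 and Krt6b were counted in members, and in Plvap-rich members 3, 73, 6 and 9. Of the 73 UMIs of Nts in young control Plvap-rich members, 90.4% came from 1 cell.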

How the results depend on the processing

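No paired analysis was possible because each group is 1 library. Depth limits genes under 50 UMIs, and intervals cover counting error only. The count of detected rule genes grows with depth, and the young libraries held deeper members and more RNA of other types.

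The share ratio in the young laser comparison, 1.50 as reported, was 1.13 with cells thinned to 1000 UMIs, 0.966 at 2000 UMIs, 1.09 without rod-type cells and 0.622 without members that held 3 or more genes of another type. The aged laser ratio was 0.836 without those members. The ratio for age without laser was 0.702 at 2000 UMIs, 0.751 without rod-type cells, 1.43 without members with 3 genes of another type and 1.61 without members at 2000 CPM of another type. The ratio for age with laser was 0.615, 1.93 and 0.909 under the last 3 of these. The causes were not tested.

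Counts of genes at least 2-fold higher and lower differed by over 1.5 times under these settings, in the order laser in young, laser in aged, age without laser, age with laser. Members thinned to 2000 UMIs, which leaves fewer UMIs, gave 140 and 130, 189 and 69, 389 and 395, and 481 and 352. Members with Plvap UMIs and no barrier gene gave 215 and 115, 260 higher, 209 and 329, and 479 and 379. Barrier-type members gave 124 and 62, 148 and 363, 299 and 245, and 83 and 365. Plvap-rich members gave 187 and 82, 252 and 73, 538 and 387, and 560 and 357. Without members that held 3 genes of another type the counts were 132 higher, 431 higher, 528 lower and 317 lower. Without members at 2000 CPM of another type 189 were lower for laser in young and 405 lower for age without laser. Without cycling members 198 were higher and 309 lower for laser in young. A minimum of 1 UMI gave 2123 and 3044, 2909 and 2081, 4685 and 1786, and 5618 and 1021. A minimum of 20 UMIs gave 784 and 818, 1197 and 265, 1356 higher, and 1899 higher, and one of 200 UMIs gave 193 and 205, 223 and 55, 422 and 478, and 473 and 354.

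Log2 medians of lists, or the log2 ratio of a gene, changed sign as follows. In barrier-type members Meis2 had -0.0137 for age without laser, and glycolysis -0.41 for laser in aged and -0.54 for age with laser. Lipid uptake had -0.49 for laser in young in members with Plvap and no barrier gene, and 0.76 and 0.0126 for age without and with laser in Plvap-rich members. Genes of that list set the upper limit of the Plvap-rich range, so its values there are a description. Complement for laser in young had -0.0593 in members with Plvap and no barrier gene, -0.12 without members at 2000 CPM of another type and -0.17 in Plvap-rich members. For laser in aged it had -0.0902 thinned, -0.39 without 3 genes of another type, -0.0509 without 2000 CPM of another type and -0.51 in Plvap-rich members. The endothelial to mesenchymal list had -0.12 without 3 genes of another type and -0.0894 in barrier-type members for laser in young, 0.66 in barrier-type members for age without laser and 0.33 without 3 genes of another type for age with laser. Without members at 2000 CPM of another type, MHC class II had -0.00275 and chemokines -0.0125 for laser in aged, and chemokines 0.0893 for age without laser, with 0.37 without cycling members.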
